A study of Mus musculus with 6 samples.

Results

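G protein-coupled receptor genes were followed in a comparison of DNA methylation between mouse samples labelled as wild-type and as Tet1 knockout. Tet1 encodes an enzyme that converts 5-methylcytosine to hydroxymethylcytosine. Genes were chosen by 17 name prefixes: Gpr, Adra, Adrb, Htr, Drd, Grm, Chrm, Adora, Ptger, S1pr, Lpar, Oprd, Oprk, Oprm, Sstr, Npy and P2ry. Each prefix had to be followed by a digit or letter, and names beginning with Gprin, Gprasp or Gprc were left out. The members numbered 47 of the 3344 genes nearest to a cytosine in the authors' deposited tables, and held 100 of the 6756 listed cytosines. Of these, 45 genes with 97 sites carry receptor names, among them Gpr137b, which encodes a lysosomal membrane protein. The other members, Htra1 and Htra3, fit the prefix Htr but encode secreted serine proteases, and their 3 sites are included in every total of the 47 prefix-matched genes below. Without them, 91 of 97 sites were hypermethylated.

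The samples were LSK cells, a bone marrow fraction without lineage markers and positive for Sca-1 and Kit, in which the blood stem and progenitor cells are found. They came from mice 6 months old of a strain given in the labels as CD57BL/6. There were 3 wild-type (WT) and 3 Tet1 knockout (Tet1 KO) samples, with no treatment named for either group. The labels do not say how the Tet1 allele was disrupted, whether it was lost in every tissue, or whether each sample is a different mouse, so separate animals cannot be assumed. The assay was enhanced reduced representation bisulfite sequencing, which reads mainly CpG-rich sequence and reads 5-methylcytosine and hydroxymethylcytosine alike. Each listed value is a difference in methylation, Tet1 KO minus WT, in percentage points, from 25 points upward in size, with 1 value per cytosine over all samples. Per-sample levels, coverage and p-values were not used here, so the depth is unknown and no difference can be set against the spread between replicates. The direction rests on how the authors named the lists and on the sign of the values, and the labelled cell type could not be checked, since a list of differences holds no marker levels. No listed cytosine was nearest to Tet1 itself, and the tables hold no check of the knockout.

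These receptors cross the cell membrane with 7 helices, bind a ligand on the outside and activate heterotrimeric G proteins on the inside. Those coupled to Gs raise cyclic AMP, those coupled to Gi lower it, and those coupled to Gq activate phospholipase C. Receptors for noradrenaline, dopamine, serotonin, acetylcholine and glutamate are known mainly from neurons and smooth muscle, whereas receptors for prostaglandin E2, sphingosine 1-phosphate, adenosine and nucleotides are known to act on blood stem and immune cells too.

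A gene named here is the gene with the nearest transcription start to the cytosine, which need not contain it. Distances are in base pairs from that start, negative upstream and positive downstream in the direction of transcription. In the deposited files the sign follows the strand of the cytosine, and it was turned back: of 2490 sites in an exon or intron of the nearest transcript, 1264 had a positive distance as deposited and 2490 after the correction. Coordinates of sites are those of the files, build mm9.

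Sequence is shown for the receptor genes with listed sites in their promoter, to show how dense in CpGs the sequence beside them is. Promoter sequence is from RefSeq, build GRCm38.p6, which was matched through the distance from the start and not through coordinates. In a check over 159 listed sites of all genes inside the RefSeq promoter window of 250 bases before to 50 bases after a start, the corrected distance fell on a CpG for 115 (72.3%), against 3 and 2 when shifted by 1 base either way. The cytosine of Chrm2, 29 bp downstream of its start, was among those that fell on a CpG. It is in capitals in the first sequence below, from bases 15 to 44 after the start (chr6:36388099-36388128, plus strand). The other sequences are the 30 bases with the most CpGs in the 250 bases upstream of the start, with every CG in capitals, and they hold no listed cytosine: chr9:14860130-14860159 (plus strand) for Gpr83, chr9:49340345-49340374 (plus strand) for Drd2 and chr13:10360984-10361013 (minus strand) for Chrm3.
Chrm2: cgggagcaggcacgCGggggcacagacaca
Gpr83: agCGgagCGCGtcaCGggagCGaagagaCG
Drd2: cccCGccccctccctcctgCGCGCGCGgCG
Chrm3: cagcaCGCGgggagaagCGaggagccCGCG
The Gpr83 and Drd2 stretches hold 6 CpGs each and the Chrm3 stretch holds 5. For Chrm2 the densest 30 upstream bases, not shown, hold 3. Of the 32851 RefSeq promoter windows, 18.7% have 30 upstream bases with at least 6 CpGs, 28.3% with at least 5 and 48.8% with at least 3. This counts the motif CG, which reads the same on both strands. The listed promoter sites lay farther upstream for Gpr83 (-395 and -362), Drd2 (-657) and Chrm3 (-520). RefSeq promoter entries were found for 32 of the 47 genes, and held a median of 22 CpGs in 300 bases (range 2 to 42), where the listed genes of both tables had a median of 18.

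Listed cytosines near the prefix-matched genes were mostly more methylated in the Tet1 KO samples. Of the 100 sites, 94 were hypermethylated and 6 hypomethylated, a share of 94% hypermethylated (exact Clopper-Pearson 95% interval 87.4 to 97.8%), beside a background of 92.8% over all listed sites. By gene, 42 of 47 had hypermethylated sites alone (89.4%), beside 87.0% of all nearest genes, and 5 had hypomethylated sites alone. The direction of the prefix-matched genes was thus near that of the lists as a whole. Intervals here and below cover counting error only, and neighbouring sites are not independent: 53 of the 100 sites had a listed neighbour on the same strand closer than the 50 bp of a read.

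**Figure D1:**
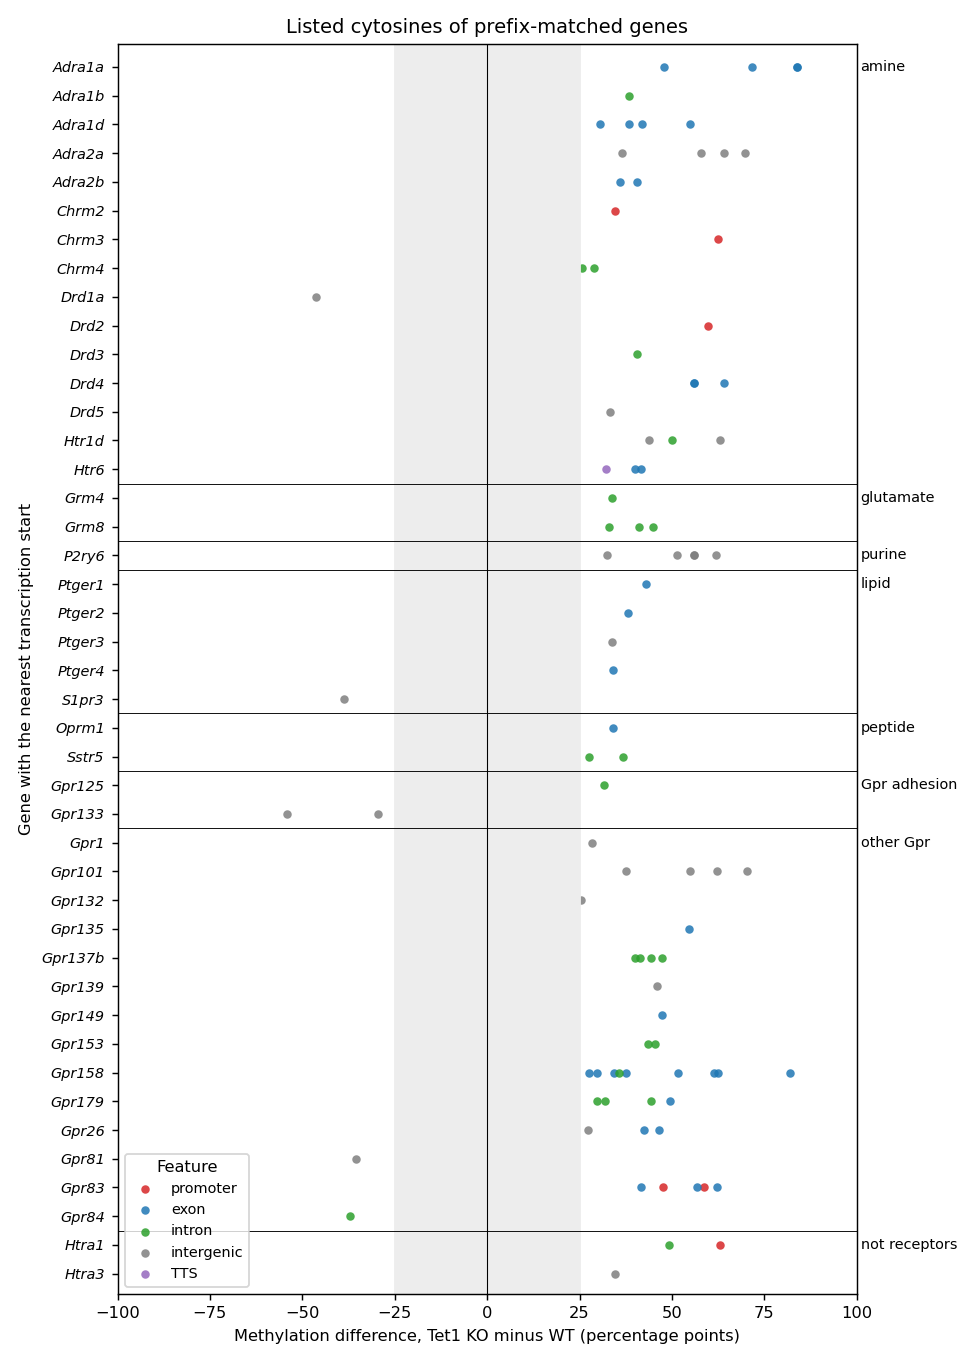
Each point is 1 listed cytosine, placed by its methylation difference in percentage points (x axis, Tet1 KO minus WT) and by its nearest gene (y axis, grouped by receptor class), with the colour giving the annotated feature. The grey band from -25 to 25 points holds no listed site by construction; the 87 sites to the right of it belong to 38 genes and the 6 to the left to 5 others, with 4 genes not shown.

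The median size of the differences was also close to the background, while the share of values of at least 60 points was higher. The median of the 94 hypermethylated sites was 43.5 percentage points (exact order-statistic 95% interval 40.5 to 47.3, range 25.4 to 83.7) and that of all 6270 hypermethylated sites in the authors' deposited table was 41.1. At least 60 points were reached by 19 of the 94 (20.2%, exact interval 12.6 to 29.8%), beside 12.3% of all. The 5 highest values, from 70.4 to 83.7 points, belonged to Adra1a, Gpr101 and Gpr158. A partial measure of error inside the tables is the CpG whose cytosines on both strands were listed. Both values come from the same samples, so their gap leaves out the spread between replicates. Over 57 such CpGs of all genes, the 2 values differed by a median of 8.29 percentage points, by 22.2 points at the 90th percentile and by 40.4 points at most. Since both had to pass 25 points to be listed, these gaps may be too small, and gaps of this size between 2 genes are not read as differences below.

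Many hypermethylated sites of the prefix-matched genes lay close downstream of transcription starts. From 0 to 3000 bp downstream lay 52 of the 94 sites (55.3%, exact interval 44.7 to 65.6%), beside 28.3% of all hypermethylated sites. The upstream side, 1 to 3000 bp before the start, held 7 of the 94 (7.45%), beside 12.4% of all. Sites less than 1000 bp apart joined into 48 hypermethylated regions, of which 22 (45.8%, exact interval 31.4 to 60.8%) had a site 0 to 3000 bp downstream, beside 25.1% of all regions. Counted by gene, 22 of the 42 with hypermethylated sites (52.4%, 36.4 to 68.0%) had such a site, beside 30.9%. Only 10 of the 94 sites were over 20000 bp from a start, beside 33.7% of all. The median absolute distance was 1878 bp, and 6842 bp over all hypermethylated sites. No test of these differences was made, since the genes were picked with results of these data known, and gene length and the cytosines read in each gene were not compared.

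**Figure D2:**
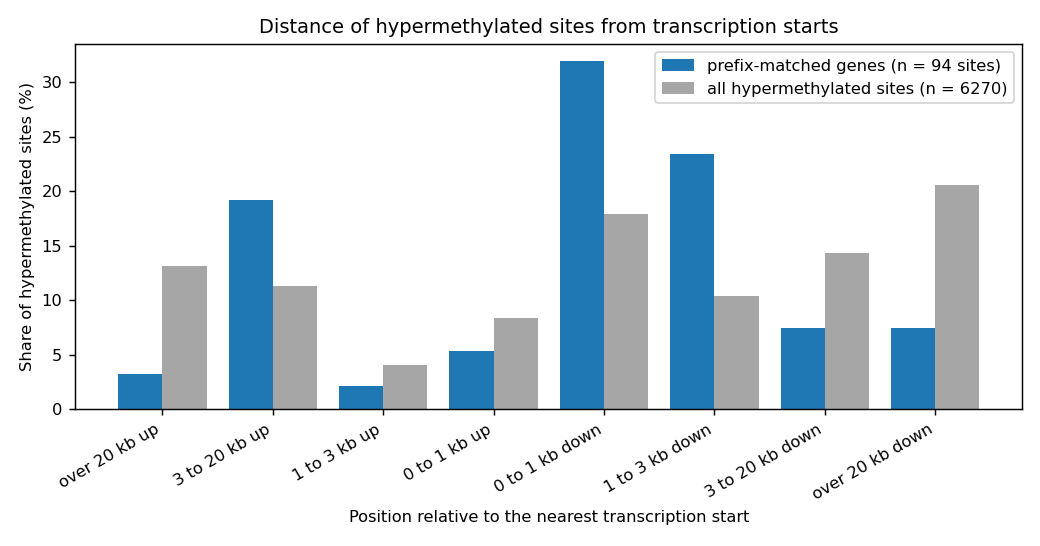
Bars give the share of hypermethylated sites (y axis, percent) in 8 ranges of distance from the nearest transcription start (x axis), for the 94 sites of the 47 prefix-matched genes and for all 6270. The 2 ranges from 0 to 3 kb downstream hold 30 and 22 of the 94 sites.

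The same sites were often exonic. Exons, untranslated parts included, held 38 of the 94 hypermethylated sites (40.4%, exact interval 30.4 to 51.0%), beside 19.6% of all. By region the exon count was 16 of 48 (33.3%, 20.4 to 48.4%), beside 14.6%. Of the 38 exon sites, 37 lay in the gene's own transcript, across 15 genes, and 24 of those in the first exon, across 9 genes. Introns held 25 sites (26.6%, beside 31.3%) and intergenic sequence held 24 (25.5%, beside 36.1%). The promoter share was 6 of 94 (6.38%, exact interval 2.38 to 13.4%), beside 11.2%, and 1 site lay at a termination site, beside 1.82%. For promoter, intron and termination site the background lay inside the interval of the prefix-matched genes. Without Htra1 and Htra3 the exon share was 41.8% and the promoter share 5.49%.

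**Figure D3:**
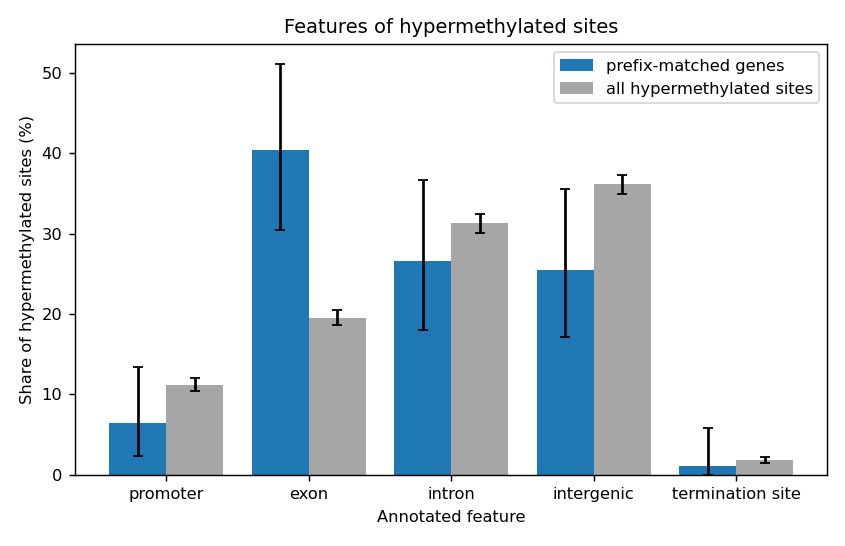
Bars give the share of hypermethylated sites (y axis, percent) by annotated feature (x axis) for the 94 sites of the 47 prefix-matched genes and for all 6270, with exact 95% intervals as error bars. Exons hold 40.4% of the former and 19.6% of the latter.

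Receptors for amine transmitters were the largest class defined by ligand, with 15 genes and 32 sites. Of these sites 31 were hypermethylated, where 92.8% of all listed sites were. The median of the 31 was 43.7 percentage points (exact interval 38.5 to 57.9). Of the 6 Adra genes in the reference 5 were listed, and so were all 5 Drd genes, beside 13.7% of all protein-coding genes. Adra1a, a Gq-coupled noradrenaline receptor, had the 2 highest values of any member. Its 4 sites lay in exon 2 of 4 on chromosome 14 (67256923 to 67257075), 2828 to 2980 bp downstream. In the authors' deposited table they differed by 47.9, 71.8, 83.7 and 83.7 percentage points, in order along the gene. The 2 equal values belong to cytosines of the reverse strand 14 bp apart, which may share reads. Adra1d, of the same subfamily, also had 4 exon sites, in exon 1 of 2 on chromosome 2 (131387035 to 131387230). Those sites averaged 41.4 points in the deposited table (range 30.4 to 54.8), and those of Adra1a averaged 71.8 points (range 47.9 to 83.7). The ranges overlap, and the 2 genes are not ranked.

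Adra2a, a Gi-coupled receptor that acts as a brake on noradrenaline release, had its sites far from the gene. All 4 were intergenic on chromosome 19 (54189141 to 54189293), 69469 to 69621 bp downstream of the start, with deposited differences of 36.5, 69.7, 57.9 and 64.0 points. Adra2b, of the same subfamily, had 2 sites 165 and 285 bp downstream in its single exon, listed at 40.5 and 35.9 points. Adra1b had 1 site (38.5 points), in a SINE repeat of intron 1. The Adra genes thus carried exonic, intronic and distant sites, all hypermethylated, as were 92.8% of all listed sites.

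Dopamine receptor genes went in both directions. Drd2, the main Gi-coupled dopamine receptor, had 1 promoter site on chromosome 9 (49148110), 657 bp upstream, which the authors' deposited table gave at 59.7 percentage points. Drd4, of the same Gi-coupled group, had 3 sites within 15 bp of each other in exon 4 of 4 on chromosome 7 (148480604 to 148480619), at 56.0, 64.0 and 56.0 points. Drd3 had an intron 1 site at 40.6 points, and the Gs-coupled Drd5 an intergenic site 3913 bp upstream at 33.3 points. Drd1a, the other Gs-coupled receptor, was nearest to a hypomethylated site instead. That site was listed at -46.2 points and lay 246344 bp downstream of the gene's start in a DNA transposon.

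Muscarinic acetylcholine receptors were listed for 3 of 5 genes, beside 13.7% of all protein-coding genes. All 3 were nearest to hypermethylated sites alone, as were 87.0% of all nearest genes. Chrm3, which drives smooth muscle and glands, had 1 promoter site on chromosome 13 (10360569), 520 bp upstream, at 62.6 points in the deposited table. Chrm2, which slows the heart, had the promoter site whose sequence is shown above (chromosome 6, 36338113), at 34.5 points. Chrm4 had 2 sites in a CpG island of intron 1, 1632 and 1680 bp downstream, and their 25.6 and 29.0 points were near the lower limit of the list. Of the serotonin receptors, Htr1d and Htr6 were listed. The prefix Htr fits 18 genes in the reference, Htra genes included, and 4 of them were listed, Htra1 and Htra3 among them. Htr1d, a Gi-coupled receptor, had an intron 1 site 300 bp downstream at 50.0 points and 2 intergenic sites 35845 and 35920 bp upstream at 43.7 and 63.0 points. Htr6, a Gs-coupled receptor of the brain, had 2 sites in exon 1 of 3 on chromosome 4 (138629990 and 138629996) at 40.04 and 41.7 points in the deposited table. The remaining Htr6 site, at 32.0 points, lay at the termination site of the neighbouring gene Nbl1.

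Metabotropic glutamate receptors were listed for 3 of 8 genes, beside 13.7% of all protein-coding genes. Among them, Grm8, a Gi-coupled receptor, had 3 hypermethylated sites in intron 1 of 10 on chromosome 6 (28082481 to 28082523). The authors' deposited table gave them 44.8, 41.1 and 32.8 percentage points. Grm4, of the same Gi-coupled group, had 1 intron site 862 bp downstream at 33.6 points, within the range of Grm8.

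**Figure D4:**
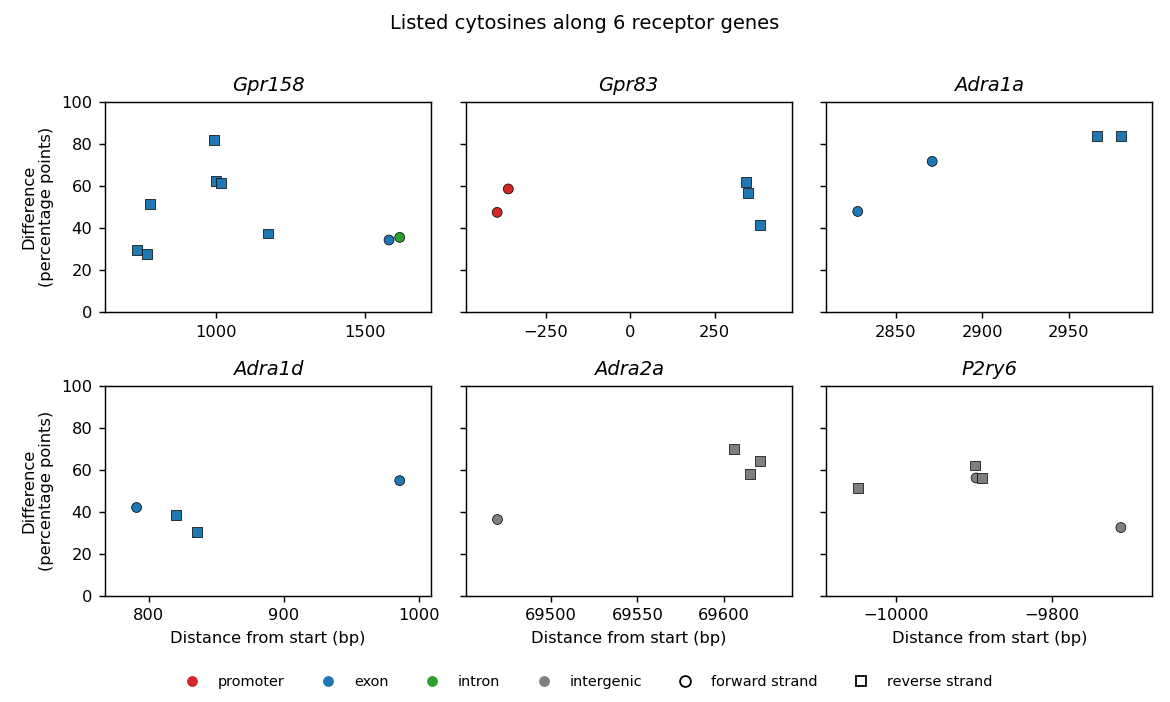
Each panel shows the listed cytosines of 1 gene by distance from its transcription start (x axis, bp, ranges differ between panels) and methylation difference (y axis, percentage points, Tet1 KO minus WT), with circles for the forward and squares for the reverse strand and colours for features. Gpr83 has sites on both sides of its start, whereas the P2ry6 sites lie 9711 to 10049 bp upstream.

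Among receptors of purines and lipids, which include those known from blood cells, prostaglandin E2 receptors were the family listed in full. All 4 genes, Ptger1 to Ptger4, were nearest to 1 hypermethylated site each, where 13.7% of all protein-coding genes were nearest to a listed site. Hypermethylated sites alone were found for 87.0% of all nearest genes. The authors' deposited table gave the 4 sites 33.6 to 42.9 percentage points. Ptger2, a Gs-coupled receptor, had its site in exon 1 of 2 on chromosome 14 (45608705), 919 bp downstream, at 38.1 points. Ptger4, the other Gs-coupled receptor, had its site in exon 2 of 3 on chromosome 15 (5193047), 635 bp downstream, at 34.0 points. The 33.6 points of Ptger3 were listed in a LINE repeat 1861 bp upstream. The Ptger1 site, at 42.9 points, lay in exon 2 of 7 of the neighbouring gene Gipc1 and 5612 bp upstream of Ptger1. These 4 values span less than 10 points and are not ranked.

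P2ry6, the receptor for uridine diphosphate, was the only listed gene of 9 P2ry genes in the reference, and it had 5 sites. They were intergenic on chromosome 7 (108122591 to 108122929), 9711 to 10049 bp upstream, with deposited differences of 32.4, 56.0, 56.1, 62.0 and 51.3 percentage points along the chromosome. This gene held the only member CpG with both cytosines listed, at 56.1 points on the forward and 62.0 points on the reverse strand. The 5.90 points between them are under the median gap of 8.29 points. The lowest value, 32.4, belongs to the site in a SINE repeat. S1pr3, a sphingosine 1-phosphate receptor, was hypomethylated at 1 site, described below. For the peptide receptors, Oprm1, the mu opioid receptor, had 1 site in exon 1 of 6 (34.2 points, 413 bp downstream). Sstr5, a somatostatin receptor, had 2 sites in intron 1 of 2 (36.7 and 27.6 points in the deposited table, 351 and 343 bp downstream).

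Genes with Gpr names, most of them named before a ligand was known, made up 19 of the 47 genes and 45 of the 100 sites. Gpr158, an orphan class C receptor of the brain, had the most sites of any member, 9 within 886 bp on chromosome 2 (21289925 to 21290811). In order from the start, the authors' deposited table gave 29.8, 27.5, 51.6, 82.0, 62.4, 61.4, 37.4, 34.3 and 35.6 percentage points, 731 to 1617 bp downstream. The first 8 lay in exon 1 of 11 and the last in intron 1. The high values stood in the middle of the stretch, 993 to 1015 bp downstream, with 51.6 points or less on either side. Gpr179, a class C receptor of the retina, had 4 sites in introns 6 and 8 and exon 11, between 29.7 and 49.5 points.

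Gpr83, a receptor of the brain and of regulatory T cells, carried sites on both sides of its start within 780 bp of chromosome 9 (14664303 to 14665083). The 2 promoter sites differed by 47.5 and 58.7 points, and the 3 exon 1 sites, 342 to 385 bp downstream, by 62.1, 56.7 and 41.7 points, per the authors' deposited table. Values of the promoter and exon sites overlapped. Gpr137b, which encodes a lysosomal membrane protein, had 4 sites in a CpG island of intron 1, 539 to 583 bp downstream, with a narrow listed range of 40.1 to 47.3 points. Gpr26, an orphan receptor of the brain, had 2 sites in exon 1 of 3 (46.6 and 42.5 points) and an intergenic site 15080 bp upstream at 27.3 points. Gpr101, an orphan receptor linked to growth hormone excess, was the only listed member on X: 4 intergenic sites within 37 bp, 18073 to 18110 bp upstream, at 55.0, 62.1, 70.4 and 37.5 points.

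Further hypermethylated Gpr genes had 1 or 2 sites each. Within 3000 bp downstream were exon sites of Gpr135 (54.5 points) and Gpr149 (47.2 points), and Gpr139 had an intergenic site 1271 bp upstream (46.0 points in the deposited table). Gpr153 had 2 sites in intron 3 (45.3 and 43.4 points) and Gpr125, an adhesion receptor now named Adgra3, had 1 in intron 1 (31.7 points). Intergenic sites were nearest to Gpr1 (28.5 points) and Gpr132 (25.4 points, the lowest of all members). Htra1, a protease and not a receptor, had a promoter site at 63.0 points and an intron 1 site at 49.1 points, and Htra3 an intergenic site at 34.6 points in the deposited table.

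Of the 6 hypomethylated sites none was in a promoter or exon, where 4.53% and 13.6% of all 486 hypomethylated sites lay. Intergenic sequence held 5, beside 43.6%, and an intron held 1. Their distances from the start ran from 6612 to 246344 bp, and 4 were over 20000 bp, beside 52.5% of all. Gpr133, an adhesion receptor now named Adgrd1, had 2 of them on chromosome 5, 138604 and 171871 bp downstream, which the authors' deposited table gave at -29.4 and -54.2 percentage points. Gpr81, the lactate receptor now named Hcar1, had a site 6612 bp upstream at -35.4 points. S1pr3 had a site on chromosome 13 (51448854), 55133 bp upstream, at -38.6 points. Gpr84, a receptor for medium-chain fatty acids on myeloid cells, was nearest to a site in intron 2 of 7 of Zfp385a at -37.0 points, 13533 bp upstream. With Drd1a these make up the 5 genes, and none of them had a hypermethylated site. Repeats held 3 of the 6 sites (those of Drd1a, S1pr3 and 1 of Gpr133), beside 27.7% of all hypomethylated intron and intergenic sites. Of the 49 hypermethylated intron and intergenic sites of the members 4 lay in a repeat, beside 10.6%. With 6 hypomethylated sites, the exact interval for the repeat share runs from 11.8 to 88.2%.

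Many members of these families were not listed at all. The reference holds 161 protein-coding genes whose current symbol fits the prefixes, Htra genes included, and 44 of them (27.3%, exact interval 20.6 to 34.9%) were nearest to a listed site, beside 13.7% of the 21900 protein-coding genes. The remaining 3 members carry newer symbols there. No listed site was nearest to any of 3 Adrb, 4 Adora, 6 Lpar or 5 Npy genes, or to Oprd1 or Oprk1. Of the S1pr genes 1 of 5 was listed, of the Sstr genes 1 of 5, and of the Gpr names 16 of 75. A gene without a listed site may lack a difference of 25 points or may have had no cytosine read, which these tables do not separate. Among 32 receptors with known roles in blood or immune cells, 9 were listed, among them Gpr132, P2ry6 and Ptger1 to Ptger4 with hypermethylated sites, and Gpr84 and S1pr3 with hypomethylated ones. That list's 11 hypermethylated sites had a median of 42.9 points.

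Genes that carry or regulate the receptors' signal, Gprasp and Gprin names included, were listed for 19 of 83, beside 13.7% of protein-coding genes. Of the 19 listed genes, 16 had hypermethylated sites alone (87.0% of all nearest genes did) and 3 had hypomethylated sites alone. Adenylyl cyclases, which make cyclic AMP, were listed for 5 of 10 genes and went in both directions. In the authors' deposited tables Adcy5 had 7 hypermethylated sites (mean 45.5 points) and Adcy1 had 6 (mean 44.3 points), whereas Adcy3 had 1 hypomethylated promoter site (-55.3 points) and Adcy4 1 hypomethylated intron site (-27.6 points). G protein alpha subunits were listed for 5 of 16 genes, all nearest to hypermethylated sites alone: Gna12, Gna14, Gnai2, Gnat1 and Gnaz. Their listed means lay between 29.6 and 38.8 points. Only the Gnat1 site lay downstream of the start, at 1924 bp. The other sites lay upstream, at -9720 bp for Gnai2, -54857 to -54752 bp for Gna12, -115774 bp for Gna14 and -323294 bp for Gnaz. The Gna12, Gna14 and Gnaz sites were annotated to an exon or intron, which need not belong to those genes. Of the beta and gamma subunits 5 of 17 were listed, and Gng8 was nearest to 4 sites averaging 70.6 points, at -5572 to -5546 bp from its start. Those 4 sites were annotated to an exon although upstream of that start, so the exon need not belong to Gng8. Gnb1 had 1 hypomethylated site (-32.7 points). Of 23 Rgs genes, which shorten G protein signals, 3 were listed, among them Rgs8 with 2 promoter sites (mean 47.1 points in the deposited table). None of the 8 receptor kinases and arrestins and none of the 4 phospholipase C beta genes was listed.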

How the data were processed

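Bisulfite reads of 3 WT and 3 Tet1 KO samples were processed by the authors. Per the submitters' processing notes Bismark and build mm9 were used, with no role or version stated. Not given in the sources used here: caller, coverage minimum, q-value threshold, and whether replicates were pooled. The authors' deposited tables give a methylation difference in percentage points (percent, from 25 points) and a distance to the nearest start per cytosine, with an annotation on mm9 per the file headers. Depth per sample is unknown, and the planned per-sample test was not run because the number of per-sample columns was 0.

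Members, receptor classes and lists were chosen with earlier results of these data known. Genes were described in full if they had at least 3 sites, a promoter or hypomethylated site, a difference of at least 70 points, or a place in the blood list. Regions were made by joining same-direction sites closer than 1000 bp. Shares carry exact Clopper-Pearson and medians exact order-statistic 95% intervals (Python 3.11.15, pandas 2.3.3, SciPy 1.17.1). Counts include 4 genes that are not reported here by name. The prefix rule was checked on known names, and the joining of regions and both kinds of interval on simulated data. Other steps were not tested in this way. All 47 genes matched the RefSeq tables (GRCm38.p6) by Entrez identifier; these were used for names, transcript owners and promoter sequence, never for mm9 positions.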

Additional observations from a re-analysis of the deposited data

How the results depend on the processing

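Of 60 alternative values, 52 stayed within the interval of the reported value (or within 1.5 times, for counts) and 8 moved. Reversal of direction was not scored. With differences of at least 40 points alone there were 59 hypermethylated and 2 hypomethylated sites, the median of the former was 54.5 points, and the termination site share was 0%. Both fewer sites and the higher median follow from that limit itself. On the forward strand alone there were 40 hypermethylated and 3 hypomethylated sites and a termination site share of 0%, and within 100 kb of a start 3 hypomethylated sites were left. Leaving out Htra1 and Htra3, or the X chromosome, moved no value beyond these bounds, and neither did joining within 200 or 5000 bp or counting regions in place of sites or genes. No paired analysis was possible because the tables hold no values per sample, and for the same reason no replicate could be left out. Unknown depth leaves the precision of each site's difference unknown.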
